A study of Mus musculus with 6 samples.

Results

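The genes described here are 37 aminoacyl-tRNA synthetase genes of the mouse, 21 for cytosolic and 16 for mitochondrial enzymes. They were found by symbol in 4 annotated lists of ATF4 ChIP-seq peaks, in which HOMER had named each peak for a gene by the distance to its transcription start site (TSS). Of the 37 genes, 24 were named at a peak at any distance and 15 at a peak 5 kb or less from the TSS, among 8863 genes named in any list. Of all protein-coding genes of the RefSeq annotation, 32.9% were named at a peak at any distance. Together the synthetase genes carried 63 of the 17462 peaks, 44 of them within 5 kb of the TSS.

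An aminoacyl-tRNA synthetase joins an amino acid to its tRNA, the step that supplies the ribosome with building blocks. Several of the cytosolic enzymes are held with scaffold proteins in a multisynthetase complex, whereas the mitochondrial enzymes are imported and charge the tRNAs of the organelle. Gars and Kars, counted here as cytosolic, encode a mitochondrial form as well. Uncharged tRNA activates the kinase GCN2, which phosphorylates eIF2alpha and so favours translation of ATF4, a bZIP transcription factor of the amino acid response. ATF4 pairs with C/EBP proteins on composite elements whose core is TGATGCAA.

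The 4 lists came from primary mouse embryonic fibroblasts (MEFs) of strain 129S6/SvEvTac, either wild type (WT) or GCN2 knockout (GCN2 KO), which were cultured for 24 h in DMEM with leucine (+Leu) or without it (-Leu). ATF4 was immunoprecipitated with 1 antibody in all groups, and each condition had 1 library, for which the chromatin of 2 experiments, with 5 or more replicates in each, had been combined. No difference between conditions therefore has a replicate check, and no test was made. The WT lists had 4850 (+Leu) and 6374 (-Leu) peaks, and the GCN2 KO lists 3566 and 2672. The median score of each list was 29 or 30. The score is the authors' peak score, a whole number from 13 up whose scale is not given in the sources used here. It may be a log-transformed q-value, so a ratio of scores given below is not a fold of binding. It was not normalized between libraries, and its highest value was 1499 with and 2628 without leucine in WT, and 391 and 353 in GCN2 KO. Sequencing depth is unknown, so a gene without a peak was below the authors' threshold in that library and not shown to be unbound. Both -Leu libraries were called against input DNA of leucine-fed cells of the same genotype. Peak lists hold no expression values, so neither the loss of GCN2 nor the cell type could be checked from them.

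At the synthetase genes ATF4 peaks recurred at the same sites, and most of these sites held the ATF4 motif. The search used TGATGCAA and the wider TGATGNAA, of which the first is a case, on both strands. Peaks within 5 kb formed 19 sites at 15 genes, where peaks of different lists with centers 300 bp or less apart were counted as a common site. TGATGNAA lay in a peak window at 14 of the 19 sites and TGATGCAA at 11. Of the 14 sites listed in 2 or more conditions, 13 held TGATGNAA, and the site without it was at Lars. Of all peaks within 5 kb, 113 of 811 in WT +Leu and 230 of 1173 in WT -Leu held TGATGNAA in the window. In GCN2 KO these were 47 of 590 with leucine and 27 of 426 without. These are counts of peaks, and the share over all sites listed in 2 or more conditions is not given here. The motifs of 9 of the 11 sites with TGATGCAA are given here, and the strongest peak of each of these sites was centered on or near its motif. The same held at Aars (12 bp) and Nars (7 bp), whose sequences are not reported here. Each printed sequence is read 5′ to 3′ from the mm10 (GRCm38) reference, on the strand where the motif, in capitals, reads TGATGCAA.
Yars, chr4:129189895-129189924, plus strand: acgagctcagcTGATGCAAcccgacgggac
Sars, chr3:108444190-108444219, minus strand: ctcgggtagtcTGATGCAAtaggtctgcaa
Mars, chr10:127311638-127311667, plus strand: ggagcccacgcTGATGCAAtcggaaccggc
Iars, chr13:49682126-49682155, minus strand: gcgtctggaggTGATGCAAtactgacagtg
Gars (intron), chr6:55038939-55038968, plus strand: gctctggcgccTGATGCAAtcgtttgtcta
Wars, chr12:108893505-108893534, minus strand: aaagggacagcTGATGCAAtgcaatgacaa
Cars, chr7:143600045-143600074, plus strand: cttccagaatcTGATGCAAccgcggcgccg
Eprs, chr1:185363259-185363288, minus strand: cacccacgcgcTGATGCAAcccgcgcgggt
Tars, chr15:11399655-11399684, plus strand: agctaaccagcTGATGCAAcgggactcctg

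In these 9 sequences the base before the motif was C in 8, with Iars the exception, and the base after it was T in 5. At 441 copies of TGATGCAA within 50 bp of the center of other WT -Leu peaks, C came before it in 47.8% and T after it in 40.4%. At the Gars promoter, in intron 2 of Vars and at a weaker Eprs site the windows held only the wider motif, shown for the first 2 with the motif in capitals.
Gars (promoter), chr6:55037960-55037989, minus strand: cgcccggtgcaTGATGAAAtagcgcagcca
Vars, chr17:35001988-35002017, plus strand: agaatgcaagaTGATGAAAtctcttccttc

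Among the cytosolic enzymes, a peak lay within 5 kb of 12 of 21 genes in fed and of 14 in leucine-deprived WT MEFs, and of 9 and 3 in GCN2 KO MEFs. Of the genes named in any list, 8.76%, 12.5%, 6.51% and 4.66% had one in the same order of lists (WT +Leu, WT -Leu, then the knockout likewise), which is kept below. These shares leave out genes named in no list, and shares of all genes would be lower. Of the synthetase genes, 4 of the 21 cytosolic and 9 of the 16 mitochondrial ones were named in no list. Of the 8 genes taken here as the enzymes of the multisynthetase complex, 4, 5, 3 and 0 had a peak, and of the 13 other cytosolic genes 8, 9, 6 and 3. No mitochondrial synthetase gene had a peak within 5 kb in 3 of the lists, and 1 of 16, Vars2, had one in GCN2 KO -Leu. A peak was present in all 4 lists at 3 genes, in 3 lists at 5, in 2 lists at 5 and in 1 list at 2. The 3 genes found in all lists, Aars, Sars and Yars, were among 17 such genes in the whole series, 0.192% of those named.

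**Figure D1:**
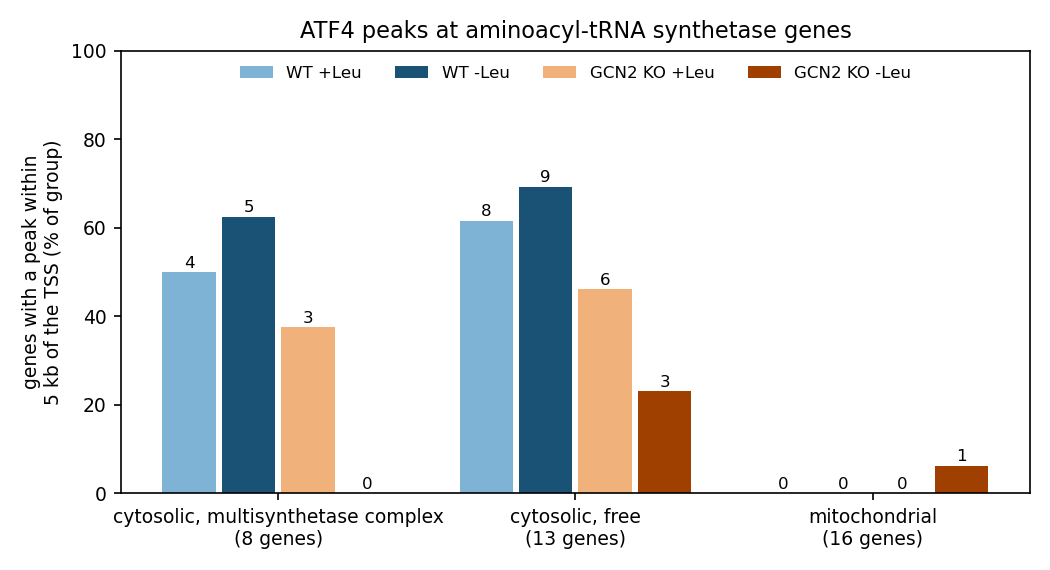
Percentage of the genes of each class with an ATF4 peak within 5 kb of the TSS, by list, with the number of genes above each bar and 1 library per condition. In both cytosolic classes the WT -Leu bar is the highest (5 of 8 and 9 of 13 genes) and the GCN2 KO -Leu bar the lowest (0 and 3), while the mitochondrial class has 1 gene in 1 list.

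Yars, which charges tyrosine tRNA, had the highest score of any synthetase gene in WT -Leu. Its score was 432 with leucine and 1098 without it in WT, and 115 and 120 in GCN2 KO. The WT scores were thus higher than both GCN2 KO scores, and the GCN2 KO scores lay close together. The strongest peak was centered 103 bp downstream of the TSS (chr4:129189748-129190048). The TSS of S100pbp was 319 bp from the same center, so the peak may not belong to Yars alone.

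Aars, the alanyl-tRNA synthetase, had a score of 404 with and 893 without leucine in WT, and of 93 and 54 in GCN2 KO. The highest of these values was that of WT -Leu and the lowest that of GCN2 KO -Leu. The 4 centers lay within 7 bp of each other, between -103 and -96 bp from the TSS, where a minus sign means upstream.

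Sars, the seryl-tRNA synthetase, was bound inside the gene, in intron 1 of 10. In WT the score was 211 with and 559 without leucine, and in GCN2 KO it was 123 and 62. It was again highest in WT -Leu and lowest in GCN2 KO -Leu. The strongest peak (chr3:108444058-108444358) was centered 1051 bp downstream of the TSS, and the intron sequence around its motif is given as 101 bases of chr3:108444158-108444258, on the minus strand, with the motif in capitals.
Sars (intron 1): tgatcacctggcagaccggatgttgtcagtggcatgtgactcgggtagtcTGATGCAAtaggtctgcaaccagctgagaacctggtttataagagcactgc

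A further 5 genes were listed in both WT conditions and in GCN2 KO +Leu. Mars, the methionyl-tRNA synthetase of the multisynthetase complex, had a score of 422 in WT +Leu, 621 in WT -Leu and 43 in GCN2 KO +Leu. Its peaks lay in the 5′ UTR, with the strongest center 123 bp downstream of the TSS (chr10:127311513-127311813). Iars, for isoleucine and of the same complex, had 185, 662 and 47 in the same order, with the strongest center 16 bp from the TSS (chr13:49681996-49682296). Both thus had their lowest score in the knockout. Lars, which charges tRNA with leucine, the amino acid withheld here, had a score of 73 in WT +Leu, 278 in WT -Leu and 36 in GCN2 KO +Leu. Its promoter peak was centered at -30 bp and held no TGATGNAA. Nars, for asparagine, departed from the order, with 25 and 183 in the WT lists and 40 in GCN2 KO +Leu, so that of the +Leu lists the knockout had the higher value.

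Gars, the glycyl-tRNA synthetase and the last of these 5 genes, had 2 sites. The promoter peak scored 88 in WT +Leu, 543 in WT -Leu (-6 bp, chr6:55037845-55038145) and 44 in GCN2 KO +Leu. The peak in intron 1 of 16 scored 119 in WT +Leu and 503 in WT -Leu (944 bp downstream, chr6:55038795-55039095), with no peak in either GCN2 KO list. The stronger of the sites was the intron in WT +Leu and the promoter in WT -Leu.

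Listed in both WT conditions and in neither GCN2 KO list were 4 genes. Cars, the cysteinyl-tRNA synthetase, was the only synthetase gene of both WT lists that scored lower without leucine, at 188 with it and 151 without, with its peak at the promoter (45 bp downstream of the TSS in WT +Leu, chr7:143599895-143600195). A second Cars peak, 403 bp downstream, had a score of 16 in WT +Leu. Eprs, whose product charges both glutamate and proline tRNAs within the complex, had 46 in WT +Leu and 170 in WT -Leu in intron 1 of 31 (177 bp downstream, chr1:185363122-185363422). A second Eprs site 911 bp downstream was listed in WT -Leu with a score of 53 and held TGATGAAA. Tars (threonine) had 30 in WT +Leu and 127 in WT -Leu at the promoter, at -9 bp in WT -Leu (chr15:11399517-11399817). Vars (valine) had 30 and 126 in intron 2 of 29, 1078 bp downstream in WT -Leu (chr17:35001835-35002135), and a further WT -Leu peak of score 22 lay at -2014 bp. The TSS of D17H6S56E-5 was 1239 bp from the first of these centers and 1853 bp from the second, the latter closer than that of Vars, for which the list named the peak. In each of Eprs, Tars and Vars the WT -Leu score was thus the higher.

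Wars, the tryptophanyl-tRNA synthetase, was not listed in WT +Leu, and had a score of 360 in WT -Leu (-302 bp, chr12:108893363-108893663) and 29 in GCN2 KO +Leu. The TSS of Wdr25 lay 759 bp from the WT -Leu center. Rars, for arginine and of the complex, was listed in WT -Leu with a score of 83, in intron 2 of 14 and 2116 bp downstream of the TSS (chr11:35832262-35832562), with no TGATGNAA in the window. Vars2, the mitochondrial valyl-tRNA synthetase, had a score of 25 in GCN2 KO -Leu, in intron 10 of 28 and 4360 bp downstream (chr17:35663082-35663382). Its window held no TGATGNAA, and it lay just inside the limit of 5 kb. The nearest peak outside the limit was at the mitochondrial Aars2 in GCN2 KO +Leu, at -6401 bp with a score of 38.

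**Figure D2:**
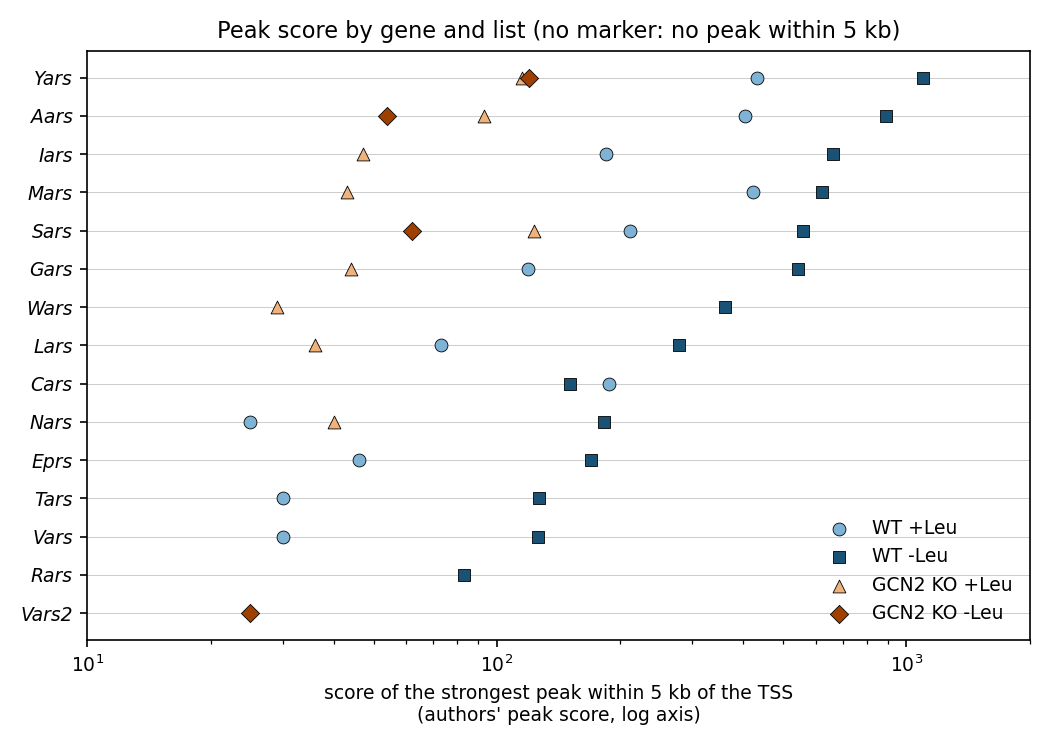
Score of the strongest peak within 5 kb of the TSS (log axis) for each of the 15 genes, with 1 marker per list and no marker where no peak was listed. The WT -Leu squares lie farthest right at every gene listed there but Cars, and the GCN2 KO markers lie between 25 and 123.

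Against the other genes with a peak within 5 kb, many synthetase genes stood near the top of their list. Among the 50 strongest genes of each list 7, 6, 4 and 3 were synthetases, whereas synthetases made up 1.55%, 1.26%, 1.56% and 0.969% of all genes with such a peak. Yars had rank 6 of 776 and 12 of 1111 genes in WT, and rank 18 of 577 and 5 of 413 in GCN2 KO. The lowest ranks were those of Nars in WT +Leu (525), Rars in WT -Leu (199), Wars in GCN2 KO +Leu (271) and Vars2 without leucine in the knockout (256). The median score of the synthetase peaks was 104, 278, 44 and 58 in the same order of lists, beside 29, 30, 29 and 29 for all peaks within 5 kb.

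The peaks also lay closer to the TSS than most. In WT +Leu 12 of 14 synthetase peaks and in WT -Leu 13 of 17 were centered within 1 kb, beside 30.9% and 37.1% of all peaks within 5 kb. In GCN2 KO MEFs 9 of 9 peaks with leucine and 3 of 4 without it were, beside 31.8% and 30%. The median distance was 106 and 123 bp in WT and 119 and 548 bp in GCN2 KO, and for all peaks within 5 kb it lay between 1595 and 2122 bp. Peaks 1 kb to 5 kb from the TSS numbered 7, at Sars, Vars, Rars and Vars2. The CpG content of the windows had a median of 6.67%, 4.33%, 7% and 3%, beside 1.67%, 2%, 2% and 1.67% for all peaks within 5 kb.

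**Figure D3:**
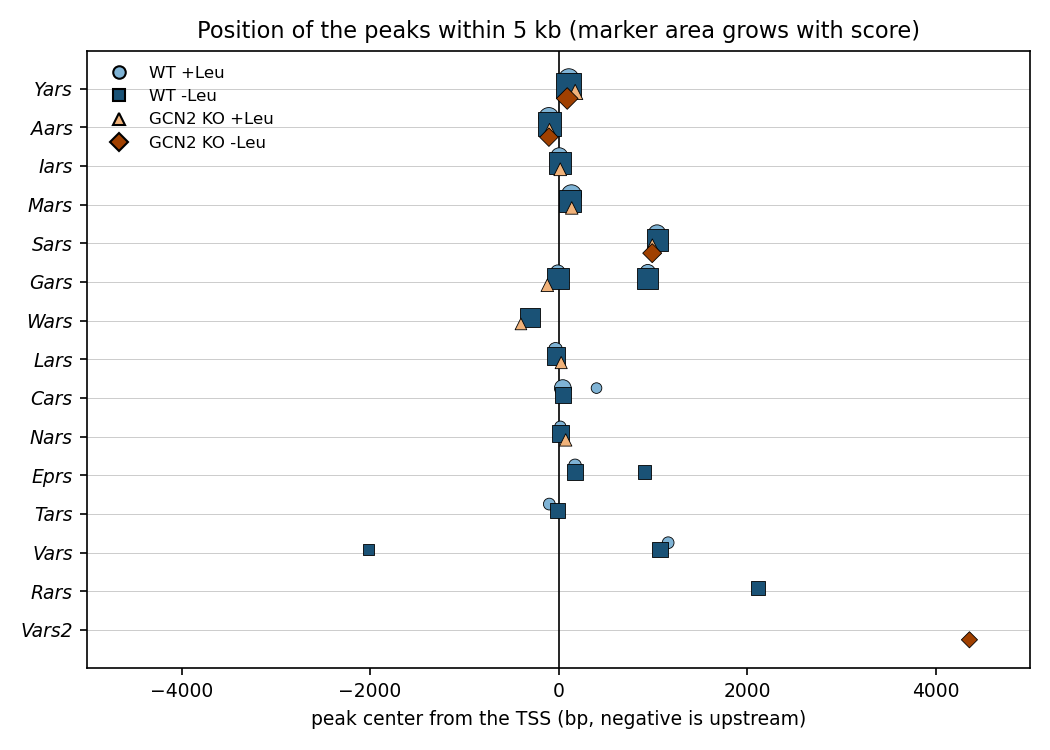
Distance of each of the 44 peak centers within 5 kb from the TSS (bp, negative upstream) by gene and list, where larger markers have higher scores. Most peaks of a gene stack at 1 position near the TSS, Sars, Vars and the second Gars site lie about 1 kb inside the gene, and Rars and Vars2 lie farther downstream.

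TGATGCAA within 50 bp of the center was found in 9 of 14 synthetase peaks in WT +Leu (64.3%, 95% Wilson interval 38.8 to 83.7) and in 11 of 17 in WT -Leu (64.7%, 41.3 to 82.7). All peaks within 5 kb held it in 7.15% and 10.2%. In GCN2 KO it was found in 4 of 9 peaks with leucine and in 2 of 4 without, beside 3.39% and 3.29%. The intervals cover counting error only, and peaks of different lists at 1 site share their sequence. All peaks within 5 kb had lower median scores and larger median distances from the TSS, as given above. The share at peaks of like score and distance is not given here. With the wider TGATGNAA the counts were 10, 14, 4 and 2, and the shares of all peaks 9.74%, 15.3%, 5.42% and 4.69%.

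At the 14 sites with a motif, the center of the strongest peak was at most 20 bp from the middle of the motif nearest to it, with a median of 9 bp. That motif lay on the strand of the gene at 7 sites and on the opposite strand at 7. Centers in WT -Leu were within 20 bp at 14 of 14 sites and those in WT +Leu at 10 of 12, with Tars (86 bp) and Vars (67 bp), both at a score of 30, as the exceptions. In GCN2 KO +Leu 3 of 8 centers were within 20 bp, at Aars, Iars and Mars. The other 5 were 44 bp (Nars), 59 bp (Sars), 62 bp (Yars), 90 bp (Wars) and 92 bp (Gars) away. In GCN2 KO -Leu the center was 6 bp away at Aars, 22 bp at Yars and 60 bp at Sars, the last almost where it lay in GCN2 KO +Leu. With distances rounded down to whole bp, all centers over 20 bp from the motif were thus of WT +Leu or GCN2 KO peaks, with scores from 29 (Wars) to 123 (Sars). Before rounding, the WT -Leu center at the Gars promoter was 20.5 bp from the motif. The part of score and depth in these distances was not tested.

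**Figure D4:**
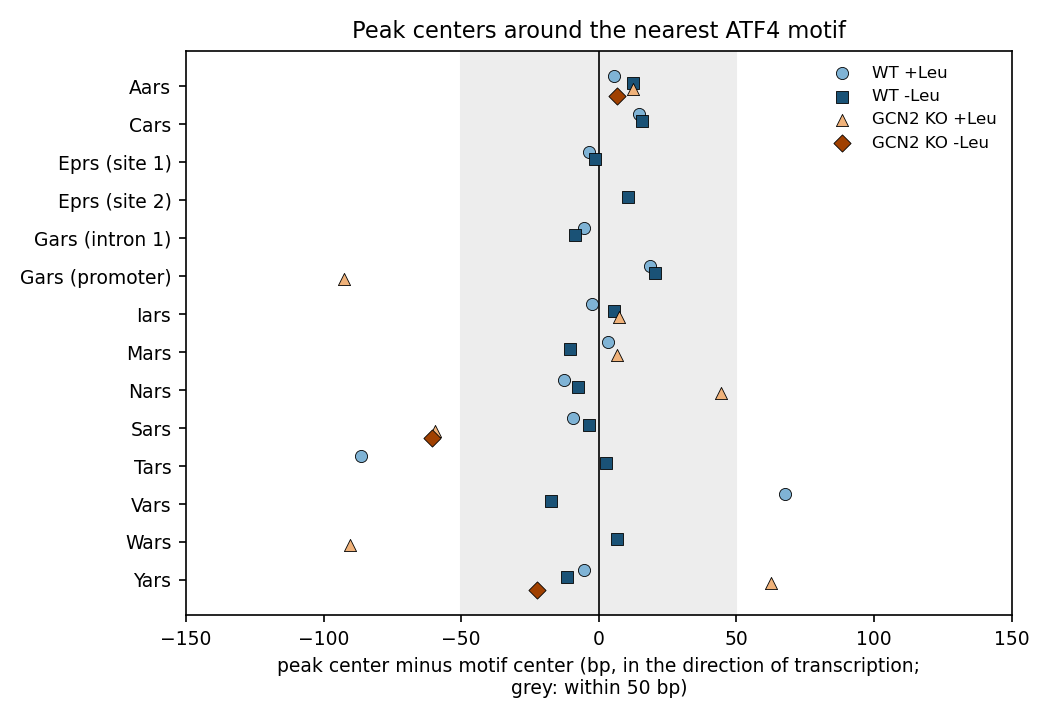
Distance of each peak center from the middle of the motif nearest to the strongest center (bp, in the direction of transcription) at the 14 sites with TGATGNAA, by list; site 2 of Eprs is the one 911 bp downstream of the TSS. WT -Leu squares all lie at most 20.5 bp from the motif, whereas 5 of the 8 GCN2 KO +Leu triangles lie 44 to 92 bp from it (rounded down).

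The promoter sequences of RefSeq, from 250 bases before to 50 after the start on GRCm38, were held for 28 of the 37 genes. The genes not matched were Cars, Hars, Lars, Nars, Rars, Vars, Wars, Hars2 and Pars2. Of these, Cars, Lars, Nars, Rars, Vars and Wars had a peak within 5 kb. At the peaks of Cars and Nars, TGATGCAA was centered 30 and 31 bp downstream of the listed TSS, and the promoter counts leave both genes out. TGATGCAA was in the promoter of 4 of the 28, Aars, Iars, Tars and Yars, and TGATGNAA also in that of Gars. All 5 were among the 9 matched genes with a peak within 5 kb, and 0 of the 19 matched genes without such a peak held either motif in this window. Of 17492 protein-coding promoters, 1.01% held TGATGCAA and 4.13% TGATGNAA.

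The WT lists with and without leucine ask which synthetase genes ATF4 occupied already in fed cells. All 12 synthetase genes with a peak in WT +Leu also had one in WT -Leu, which is 85.7% of the 14 there. Of all genes, 20.2% of those in WT +Leu and 14.1% of those in WT -Leu were in the other list. The peaks formed a common site at 12 of the 12 genes, beside 66.2% of the 157 genes in both lists. The score was higher in WT -Leu at 11 of the 12 genes, beside 79.6% of all such genes. The ratio of WT -Leu over WT +Leu had a median of 3.64 and ran from 0.803 (Cars) to 7.32 (Nars), and over all genes its median was 2.13. Because scores were not normalized, the percentile of the score in its own list was also compared, and this was higher in WT -Leu at 5 genes (Eprs, Gars, Nars, Tars and Vars) and lower at 7. The synthetase genes with the highest scores in WT +Leu were thus already at the top of that list.

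**Figure D5:**
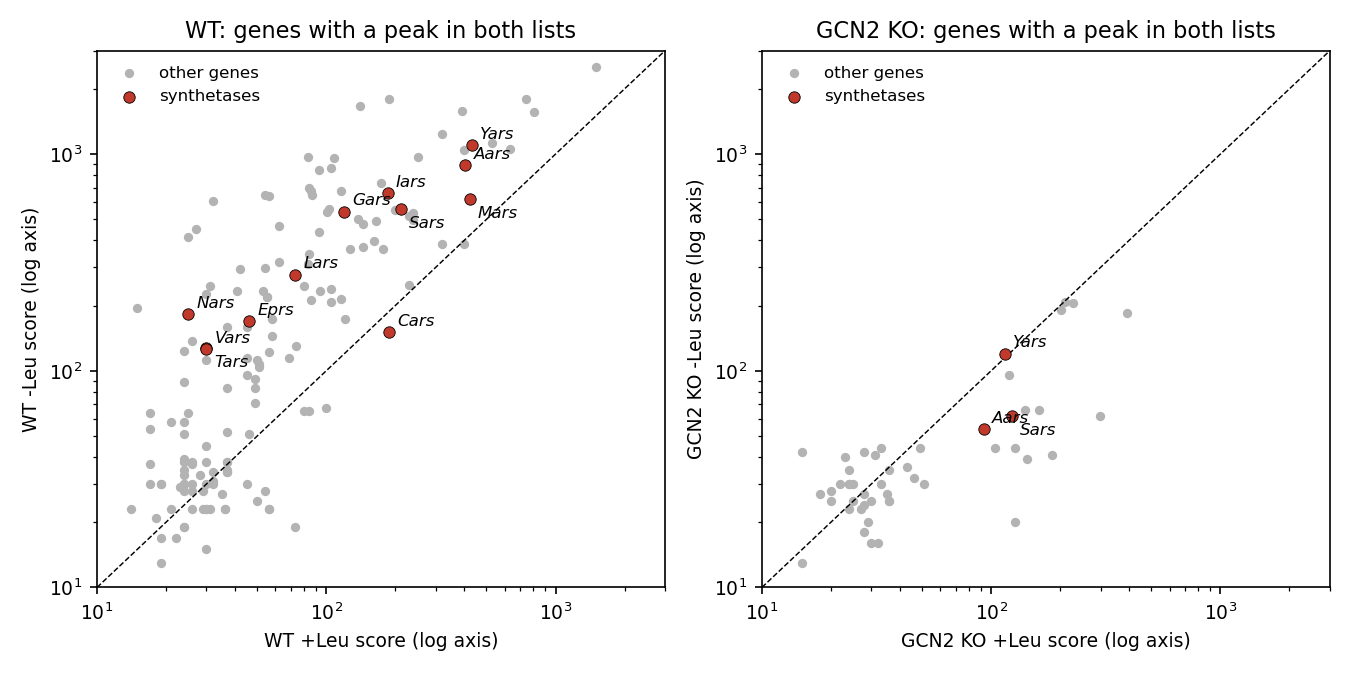
Score with leucine against score without leucine (log axes; strongest peak within 5 kb) for every gene with a peak in both lists of a genotype, with the synthetase genes in red, other genes in grey and the dashed line at equal scores. In WT 11 of 12 synthetase genes lie above the line, and in GCN2 KO 1 of 3 does.

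In GCN2 KO MEFs, 3 of the 9 synthetase genes listed with leucine were also listed without it, 75% of the 4 there. Of all genes, 8.49% and 11.9% were in the other GCN2 KO list, and a common site was found at 3 of 3 synthetase genes beside 59.2% of all 49 shared genes. Yars scored 1.04 times as high without leucine, while the ratio was 0.581 at Aars and 0.504 at Sars. A higher score without leucine was found at 28.6% of all shared genes, whose median ratio was 0.857. The genes listed in GCN2 KO +Leu but not in GCN2 KO -Leu were Gars, Iars, Lars, Mars, Nars and Wars.

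Of the 12 synthetase genes in both WT lists, 8 also had a peak in GCN2 KO +Leu, beside 29.9% of all 157 such genes, and 3 in GCN2 KO -Leu, beside 16.6%. Between the +Leu lists, these 8 genes were 88.9% of the GCN2 KO and 66.7% of the WT synthetase genes, where all genes gave 13.9% and 10.3%. All 8 had a common site, beside 56.2% of all shared genes. The WT score was the higher at 7 of the 8, beside 71.2% of all shared genes, with a median ratio of WT over GCN2 KO of 3.23, from 0.625 (Nars) to 9.81 (Mars), and 1.32 over all shared genes. The ratio takes the strongest peak of each list, which at Gars was in the intron in WT and at the promoter in GCN2 KO. With common sites only, the median ratio at the synthetase genes was 2.89. Between the -Leu lists, 3 genes were shared, 75% of the GCN2 KO and 21.4% of the WT synthetase genes, where all genes gave 14.0% and 5.22%. Their sites were common at 3 of 3, beside 46.6%. WT was higher at all 3, beside 65.5% of all shared genes, by a ratio of 16.5 at Aars, 9.15 at Yars and 9.02 at Sars, with a median of 1.53 over all shared genes.

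Peaks farther than 5 kb from the TSS numbered 19. Their scores ran from 21 to 64 with a median of 30, near that of the whole lists, and none had a common site in another list. The strongest was near Tars in WT -Leu, 28786 bp downstream of the TSS, and it was the only one with TGATGCAA. The shares over all peaks beyond 5 kb with a common site or with the motif are not given here. Neither count is therefore shown to be particular to the synthetase genes. Peaks beyond 5 kb were the only ones at 9 genes, the cytosolic Dars, Farsb and Tarsl2 and the mitochondrial Aars2, Cars2, Lars2, Nars2, Pars2 and Rars2. No peak at any distance was named for 13 genes. These were the cytosolic Farsa, Hars, Kars and Qars, the last 2 of which are in the multisynthetase complex, and the mitochondrial Ears2, Fars2, Hars2, Iars2, Mars2, Sars2, Tars2, Wars2 and Yars2. No peak within 5 kb of the RefSeq start of a synthetase gene was named for another gene.

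Of 16 other genes that handle tRNA, 2 were listed within 5 kb in WT +Leu, 1 in WT -Leu and 0 in both GCN2 KO lists, beside 8.76%, 12.5%, 6.51% and 4.66% of the genes named in any list. The 16 include 10 genes named in no list, which the shares of named genes leave out. Xpot, the exporter of tRNA from the nucleus, had a score of 127 in WT +Leu and 365 in WT -Leu in intron 1 of 24, with TGATGNAA in the window. Eef1e1, 1 of 3 scaffold genes of the multisynthetase complex searched, had a score of 30 in WT +Leu, at -2849 bp. The scaffold genes Aimp1 and Aimp2, the CCA-adding enzyme Trnt1, the 5 genes for editing mischarged tRNA (Aarsd1, Dtd1, Dtd2, Ankrd16 and Prorsd1), the 4 for the mitochondrial amidotransferase and formyltransferase (Qrsl1, Gatb, Gatc and Mtfmt) and the 2 for selenocysteine (Pstk and Sepsecs) had no peak within 5 kb.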

How the data were processed

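The authors used fastx to trim single reads of 50 bases, BWA 0.7.12 to align them to mm10, called peaks with MACS2 2.1.0 (--nomodel, false discovery rate of 0.05) against input of the same genotype, and annotated summit ±150 bp with HOMER 4.7. The deposited values used were the peak score, the bp to the TSS of the named gene, and GC and CpG contents, each deposited as a fraction of 1 and printed as percent. Sequence was read from GRCm38, whose GC content equalled that listed for every peak on assembled chromosomes.

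From these were computed the strongest peak within 5 kb per gene, score ratios, common sites (300 bp), within-list percentiles and motif positions, with Python 3.11.15, pandas 2.3.3, numpy 2.4.6, scipy 1.17.1, pysam 0.24.0, matplotlib 3.10.9 and samtools 1.23.1. On simulated data, the overlap step recovered 200 of 200 planted common peaks (4850 WT +Leu peaks) and the motif step 300 of 300 windows. Planted peaks were shifted by 300 bp or less, the others were moved past any chromosome, and motifs were planted in sequence of A and C. Full recovery was thus fixed in advance, and it checks the code and not the calls at real peaks. Distances from a motif were rounded down to whole bp. The genes are the 37 listed by symbol, all of them accounted for. Members and gene lists were chosen with earlier results of these data known. Sequences on chromosome 18 and some others are not reported here. The 2 input libraries were not analysed here.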

Additional observations from a re-analysis of the deposited data

Results flagged for a closer look

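Without leucine, scores as deposited differed in opposite directions in the 2 genotypes at 2 genes, and so did the number of genes. Each value comes from 1 library per condition, so these differences between genotypes were not tested. At Aars the score ratio of -Leu over +Leu was 2.21 in WT and 0.581 in GCN2 KO MEFs. At Sars it was 2.65 in WT and 0.504 in GCN2 KO. Yars, the only other synthetase gene in both GCN2 KO lists, had 2.54 in WT and 1.04 in GCN2 KO. Over all genes shared by the lists of a genotype, the median ratio was 2.13 in WT and 0.857 in GCN2 KO. The opposite directions were thus not particular to Aars and Sars. The percentile within the list, which does not depend on the scale of the score, was lower without leucine in both genotypes at both genes. With and without leucine it was 99.8 and 99.5 in WT and 99.1 and 97.2 in GCN2 KO at Aars. At Sars it was 99.4 and 98.9 in WT and 99.4 and 98.5 in GCN2 KO. Percentiles so near the top of the WT +Leu list could hardly rise, so they cannot decide the direction in WT. The number of synthetase genes with a peak within 5 kb was higher without leucine by 2 in WT and changed by -5 in GCN2 KO. Over all genes the number moved the same way, from 776 to 1111 in WT and from 577 to 413 in GCN2 KO. The authors' sets of target genes within 5 kb had these sizes except in WT -Leu, where theirs was smaller. The reason for that difference was not examined.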

How the results depend on the processing

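Scores were not normalized and depth is unknown, which limits every comparison between lists to a description. When percentiles replaced scores, the median ratio of WT -Leu over WT +Leu turned from above to below 1 (0.9984), as did that at Aars (0.9968), Iars (0.9983), Lars (0.997), Mars (0.9922), Sars (0.995) and Yars (0.9986), and the ratio of WT over GCN2 KO with leucine at Sars came to 1. Percentiles near the top of a list cannot rise much further by their construction. The median ratio by percentile was 0.9908 for GCN2 KO -Leu over +Leu, 1.03 for WT over GCN2 KO with leucine and 1.004 without it. The motif TGATGCAA searched in the whole window in place of 50 bp was found in 7 GCN2 KO +Leu peaks. All other counts and medians that answer a comparison, 71 values under other score minimums, list sizes, TSS limits, overlap distances, motif settings and choices of peak, stayed within 1.5 times the reported value. No replicate could be left out. No paired analysis was possible because each condition had 1 library.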
